A study of Mus musculus with 60 samples.

Results

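Mouse embryonic stem cells that lack Eed were compared with wild-type cells of the same line, 24 h after both were moved to the 2 inhibitor medium known as 2i. The comparison rests on 3 Eed knockout (1A Eed KO) and 3 wild-type (1A WT) libraries, 6 of the 60 in the series, chosen by their labelled line, genotype and time. The cells were kept in serum with leukaemia inhibitory factor (LIF) on gelatin. The 2i treatment added CHIR99021 at 3 µM, which blocks the kinase GSK3, and PD0325901 at 1 µM, which blocks the kinase MEK, and was renewed every day. Groups set beside the 24 h pair were 1A Eed KO and 1A WT cells at 0 h (serum and LIF without inhibitors), 12 h, 48 h and 96 h, and at 24 h the 1A Ezh2 KO cells and the V19 WT cells, each with 3 libraries. V19 is a second, independently derived wild-type line. Each knockout is a single line made with Cas9 from 1A, so that an effect of the lost gene and a property of that line cannot be told apart. The labels call the libraries of a group biological replicates, and nothing says more about how the cultures were separated. The p-values rest on the spread between cultures within a group, estimated over all 60 libraries in 20 groups, and not on spread between lines.

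Eed is a core subunit of Polycomb repressive complex 2 (PRC2), which places methyl groups on lysine 27 of histone H3 and keeps developmental genes silent in stem cells. Eed reads the same mark and stimulates the catalytic subunit, Ezh2 or its relative Ezh1, and neither enzyme methylates histones without it. The 2i inhibitors move serum-grown stem cells towards the ground state of naive pluripotency, in which ERK signalling is blocked, beta-catenin is stabilised, DNA methylation falls and the Polycomb mark is spread more widely over the genome. PRC2 also takes part in silencing some imprinted genes, which are expressed from the copy of 1 parent.

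The Eed KO libraries held 10663535, 6998206 and 6488290 counts, and the WT libraries held 7291828, 6811860 and 5937554. WT replicate 1 and Eed KO replicate 3 stood apart from the other libraries of their groups. Over genes, the chi-square statistic per degree of freedom was 13.5 and 9.36 for the pairs with Eed KO replicate 3, against 2.33 for the other Eed KO pair, and 16.9 and 19.4 for the pairs with WT replicate 1, against 1.62 for the other WT pair. Transcript length moved with this split. Levels are given as CPM, the count of a gene scaled to the total of its library and its TMM factor. The mean log2 CPM of long genes (at least 6283 exonic bases) minus that of short genes (at most 2284 bases) was 0.056, -0.0027 and -0.46 in the Eed KO libraries, and -0.0042, -0.63 and -0.70 in the WT libraries. With this length index as a covariate 9802 genes were called between Eed KO and WT cells at 24 h, and 9478 without WT replicate 1 and Eed KO replicate 3, against 9466 in the fit reported here. Values without WT replicate 1 are given beside some of the long genes whose levels followed the split. The differences between Eed KO and WT cells at 24 h also moved with length. The median log2 fold change was -0.27 in genes up to 2290 bases and 0.10 in genes from 6306 bases. Without WT replicate 1 these medians lay further apart, at -0.38 and 0.25, and with the covariate they were -0.11 and -0.035. Leaving out that library therefore widened the length difference, and larger values of long genes without it are no check on the split. Embryonic stem cell markers (Pou5f1, Sox2, Nanog, Esrrb, Zfp42, Sall4, Utf1 and Tdgf1) were detected in all 6 libraries and summed to 2439.6, 2458 and 2561 CPM in the Eed KO libraries, against 4816, 4915 and 5040.0 CPM in the WT libraries.

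The targeted gene was low in every knockout library. Eed stood at 15.9, 16.7 and 19.2 CPM in Eed KO cells, against 286, 357 and 393 CPM in WT cells, a log2 fold change of -4.33 ± 0.12 (SE, as for all fold changes below; n = 3 libraries each; edgeR's quasi-likelihood test, adjusted p = 5.97e-33). The knockout libraries lay far below every WT library. The labels do not say where Eed was edited. Ezh2, the catalytic subunit, stood at 168, 167 and 162 CPM in Eed KO cells, against 247, 257 and 278 CPM in WT cells (log2 fold change -0.65 ± 0.07). Suz12, the third core subunit, had a log2 fold change of -0.28 ± 0.11 (adjusted p = 0.0233), and this call was lost without WT replicate 1 (-0.19, adjusted p = 0.15).

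Among the other subunits of PRC2 the changes ran both ways. Of 14 PRC2 genes, all tested, 5 were higher and 6 lower in Eed KO cells, with a median log2 fold change of -0.08. Over all 15083 genes tested, 62.8% were called at an adjusted p below 0.05, 33.6% as higher and 29.2% as lower, and the median was 0.02, so that a called gene is common in this comparison. Ezhip, an inhibitor of PRC2 that is normally restricted to the germline, stood at 14.2, 15.5 and 14.4 CPM in Eed KO cells, against 1.11, 1.10 and 0.906 CPM in WT cells (log2 fold change 3.79 ± 0.26, adjusted p = 7.3e-18). The accessory subunits Mtf2, which recruits PRC2 to CpG islands, and Aebp2 had lower levels (-0.84 ± 0.07 and -0.61), while Phf19 had a higher level (1.40 ± 0.19). Ezh1 was slightly higher, by 0.44 ± 0.11.

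Polycomb repressive complex 1 (PRC1) binds chromatin that PRC2 has marked, and has variant forms that act independently. Of its 23 genes, 13 were higher and 6 lower, with a median log2 fold change of 0.48, which was -0.06 in the authors' RUV-normalized values of the same libraries. Bcor, a subunit of a variant PRC1, stood at 289, 273 and 202 CPM in Eed KO cells, against 42.7, 28.2 and 26.1 CPM in WT cells (log2 fold change 2.97 ± 0.15, and 3.24 without WT replicate 1). The knockout level was several times the WT level in every library. Pcgf5 was higher (1.76, and -0.22 in the RUV values), while Phc1 (-1.60), Cbx6 (-0.85) and Pcgf6 (-0.75) were lower.

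Across the transcriptome, 9466 of the 15083 genes were called, 5067 as higher and 4399 as lower in Eed KO cells. The 3 Eed KO libraries lay wholly above or below the 3 WT libraries in 58.4% of genes, 32.3% above and 26.0% below. Among changes of at least 2-fold the balance was uneven, with 2797 genes (18.5%) higher and 870 (5.77%) lower. The share of genes higher by at least 2-fold was larger where the WT level was lower. Of 1810 genes under 1 CPM in WT cells, 58.0% were higher and 1.93% lower by at least 2-fold, while of 2391 genes at 100 CPM or more, 1.88% were higher and 5.65% lower. Genes under 1 CPM in WT cells could pass the filter on low counts mainly through groups where they were high, so this split is partly set by the filter.

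The size of these differences depends strongly on which deposited values are used. The authors also deposited values normalized with RUV, a method that removes estimated unwanted variation. In them, limma on log2(value + 1) called 1335 of 17754 genes, 589 as higher and 746 as lower, and Eed itself differed by a log2 fold change of only -0.49 (adjusted p = 0.00113). All levels and fold changes below are from the raw counts, and each gene list whose median changes sign in the RUV values is named with both values. A list that keeps its sign can still lose most of its calls there.

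The genes with the largest higher levels included several of the placenta. Hand1, a transcription factor of trophoblast giant cells, stood at 168, 155 and 143 CPM in Eed KO cells, against 1.52, 1.10 and 0.543 CPM in WT cells (log2 fold change 7.12 ± 0.20, adjusted p = 6.89e-33). H19, an imprinted noncoding RNA, stood at 4106, 3647 and 3699.7 CPM in Eed KO cells, against 26.1, 27.6 and 29.5 CPM in WT cells (7.11 ± 0.15, adjusted p = 2.67e-38). Plac1, a placental gene on the X chromosome, stood at 61.4, 58.5 and 66.4 CPM in Eed KO cells, against 0.416, 0.940 and 0.181 CPM in WT cells (6.84 ± 0.25). Genes were named here and among the largest lower levels only where the groups did not overlap, which held for 58.4% of all genes. H19 took the other sign in the RUV values (-1.02). Epn3, an endocytic adaptor (6.99 ± 0.24), and Dmkn, a secreted epithelial protein (6.64 ± 0.30), were in the same range. Vdr, the vitamin D receptor, stood at 19.8, 20.2 and 16.3 CPM in Eed KO cells, while its WT level rests on 3 counts, all of them in WT replicate 1. Serpinb9d and Xlr3a had no count in any WT library and were at least 34.6-fold and 31.7-fold higher in Eed KO cells, taking as the bound 3 counts over the WT group, all in its smallest library. Both belong to families of near-identical copies, so that the counting could have split their reads.

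The genes with the largest lower levels included signalling molecules and imprinted genes. Fgf17, a fibroblast growth factor, stood at 0.966, 0.268 and 0.734 CPM in Eed KO cells, against 21.6, 24.6 and 20.5 CPM in WT cells (log2 fold change -4.95 ± 0.25). Plagl1, an imprinted zinc finger factor, stood at 1.32, 2.54 and 2.64 CPM in Eed KO cells, against 45.9, 42.4 and 39.9 CPM in WT cells (-4.37 ± 0.19). Both genes were close to silent in the knockout and clearly expressed in WT cells. Gli1, the transcription factor and readout of Hedgehog signalling, stood at 4.13, 2.81 and 2.20 CPM in Eed KO cells, against 51.8, 45.7 and 34.4 CPM in WT cells (-3.78 ± 0.20). Mobp, a myelin protein gene (-5.44 ± 0.29), Trh, which encodes thyrotropin-releasing hormone (-3.62 ± 0.16), and Ntn1, which encodes the guidance protein netrin-1 (-3.40 ± 0.15), were lower too, as was Rragb, which encodes a GTPase of nutrient sensing (-3.71). Gbx2, a homeobox factor downstream of LIF, was lower to a like degree and is described with the naive genes.

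**Figure D1:**
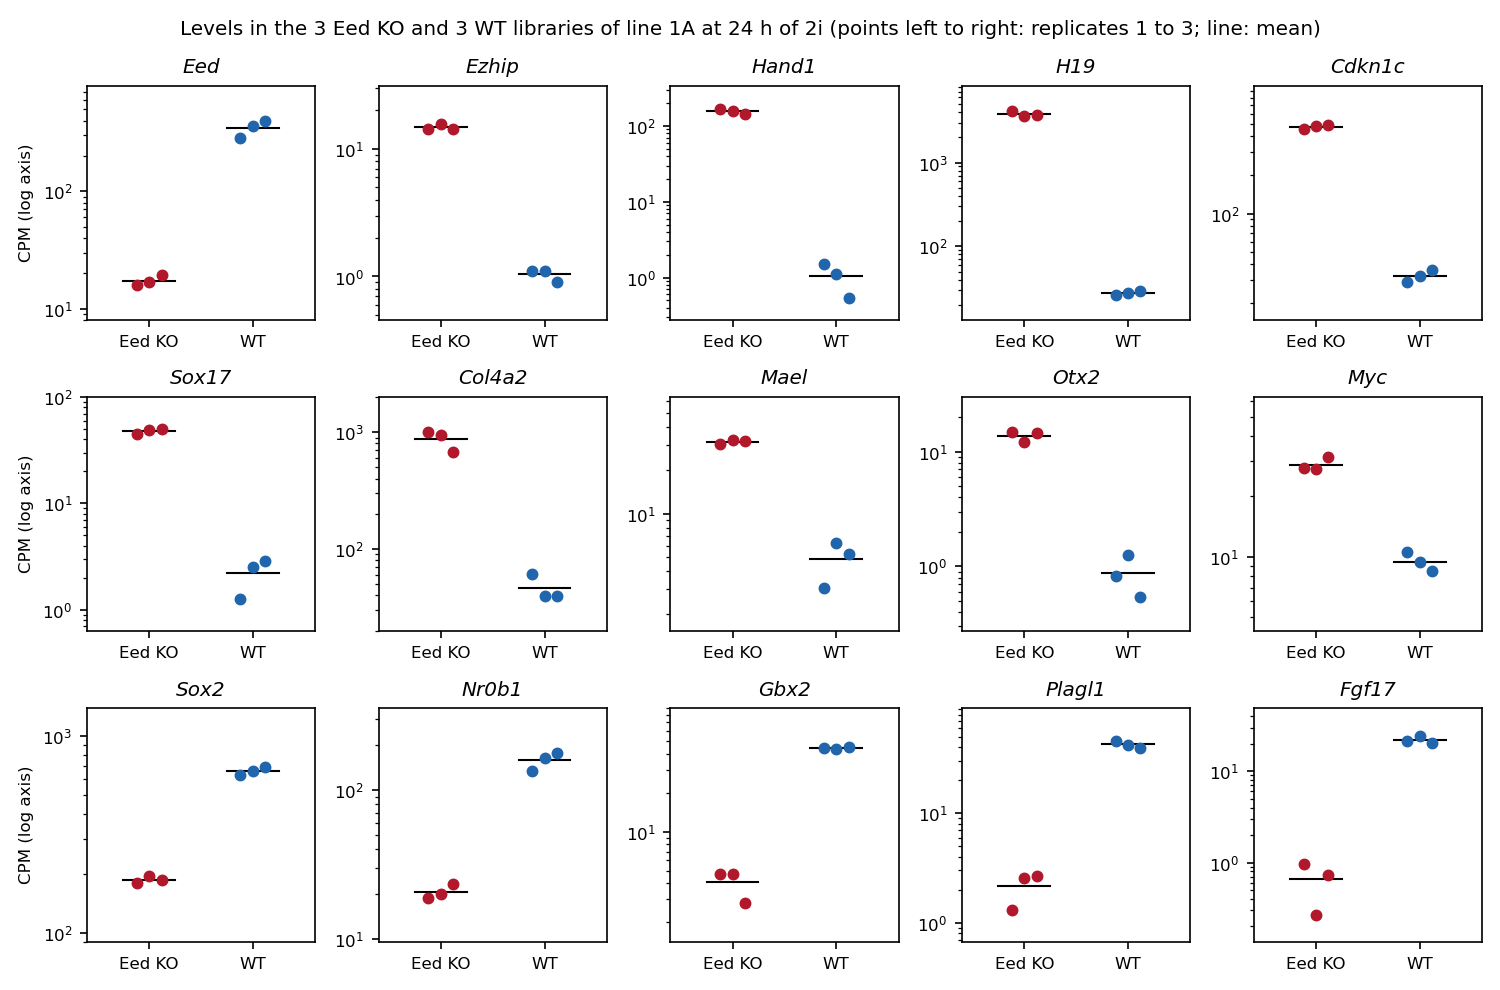
Level of 15 genes in each 24 h library, in CPM on a log axis, with the Eed KO libraries left of the WT libraries; a point is 1 library and the bar is the group mean. Eed stands at 15.9 to 19.2 CPM in the knockout against 286 to 393 CPM in WT cells. Hand1, H19 and Cdkn1c lie above the WT range, and Sox2, Nr0b1, Gbx2, Plagl1 and Fgf17 lie below it. Separate groups were a condition for naming genes by the size of their fold change, among them Hand1, H19, Gbx2, Plagl1 and Fgf17.

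The Hox genes, which set position along the body axis and are classic targets of PRC2, were higher almost without exception. Of 39 Hox genes, 29 passed the filter on low counts, and 27 of these were higher by at least 2-fold in Eed KO cells and none lower, with a median log2 fold change of 3.06. Members that passed the filter only through groups where they were high had to differ, here and in the other lists, so such counts describe those members alone. In the RUV values 1 of the 29 Hox genes was called higher, and the median was 0.33. Hoxb9 stood at 10.9, 11.9 and 14.7 CPM in Eed KO cells, against 2.08, 1.57 and 0.181 CPM in WT cells (3.17 ± 0.25). Hoxd9 stood at 12.7, 12.7 and 11.5 CPM in Eed KO cells, against 1.94, 1.41 and 1.45 CPM in WT cells (2.91 ± 0.23). Hoxd13, the most posterior gene of its cluster, stood at 11.6, 14.1 and 12.6 CPM in Eed KO cells, against 2.91, 2.35 and 3.08 CPM in WT cells (2.18 ± 0.21), and took the other sign in the RUV values (-0.39). These Hox genes were detected in every knockout library, at levels well below those of Hand1 and H19.

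Transcription factors of later development outside the Hox clusters behaved alike. Of 82 such genes, 61 were tested, 52 were higher and 2 lower, and the median log2 fold change was 2.30, or 2.24 with the genes without a WT count at their bound. In the RUV values 4 were called higher and 3 lower, and the median was 0.12. Pitx1, a homeobox factor of the hindlimb and pituitary, stood at 90.3, 86.5 and 103 CPM in Eed KO cells, against 1.52, 2.82 and 1.81 CPM in WT cells (5.50 ± 0.18). Tfap2a, a factor of surface ectoderm and neural crest, stood at 31.3, 35.7 and 23.9 CPM in Eed KO cells, against 1.66, 2.04 and 1.27 CPM in WT cells (4.17 ± 0.20). Cdx2, which specifies trophectoderm and posterior identity, stood at 52, 53 and 53.6 CPM in Eed KO cells, against 2.63, 2.51 and 5.07 CPM in WT cells (3.99 ± 0.19). The groups did not overlap in any of the 3.

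**Figure D2:**
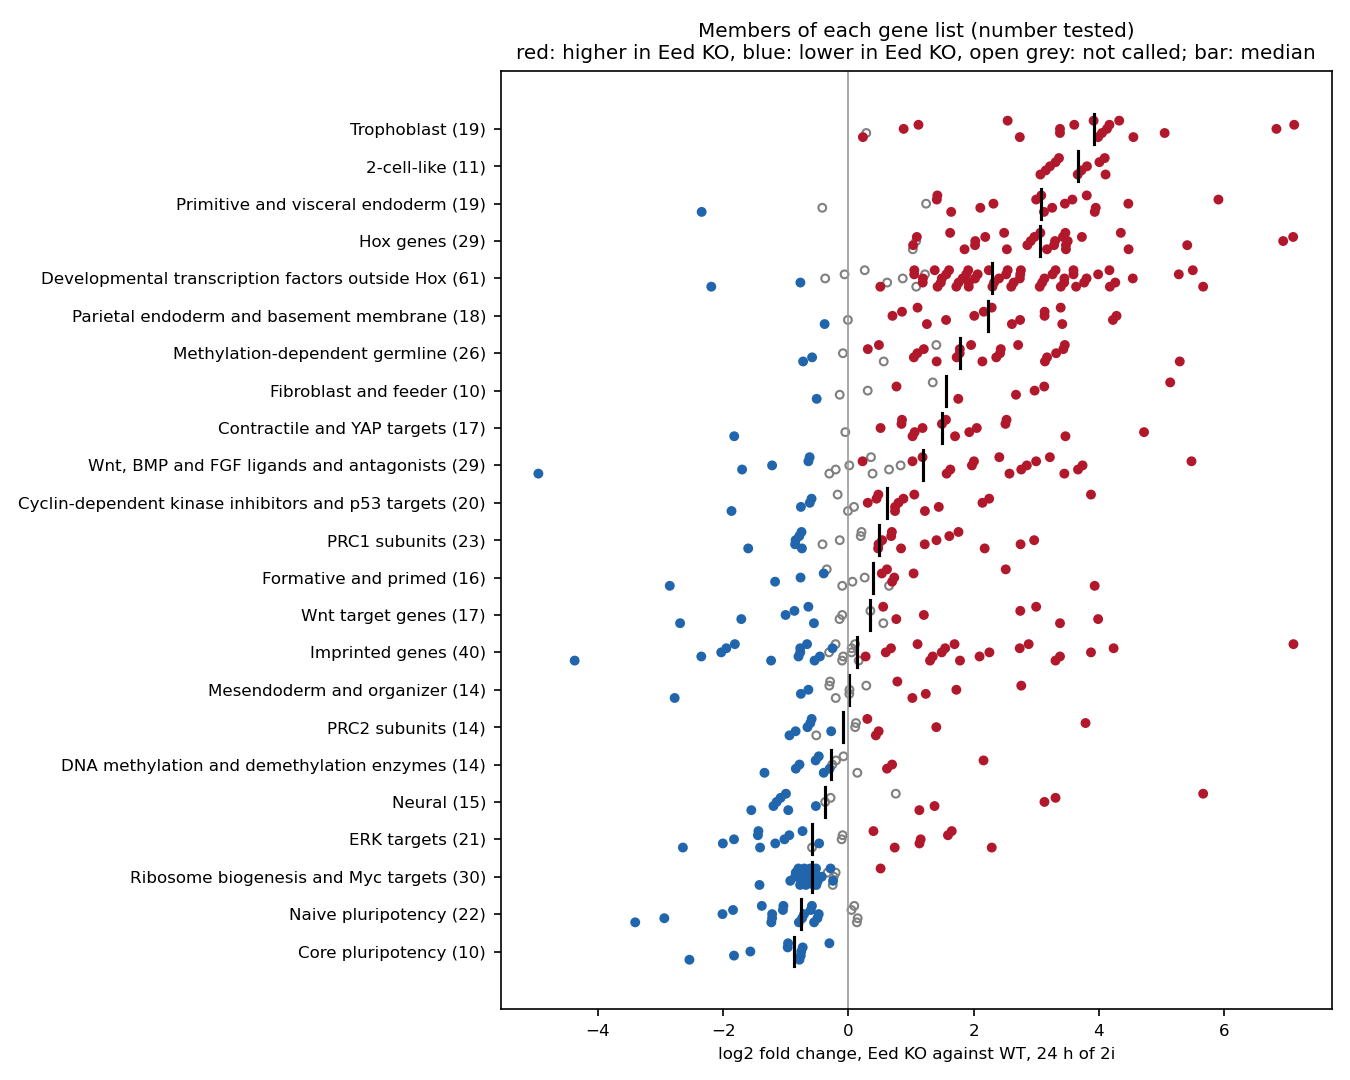
Log2 fold change, Eed KO against WT at 24 h, of every tested member of 23 gene lists; a point is 1 gene (red called higher, blue called lower, open grey not called) and the bar is the list's median. Hox genes (median 3.06) and trophoblast genes (3.92) lie to the right of 0 and naive pluripotency genes (-0.77) to the left; in the RUV values the medians of the PRC1, mesendoderm, neural, Wnt target, ligand, imprinted, cyclin-dependent kinase inhibitor, DNA methylation and contractile lists take the other sign, and that of the trophoblast list is 0.00.

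Trophoblast is the outer lineage of the blastocyst that forms the placenta. Of 21 trophoblast genes, 19 were tested, 18 were higher and none lower, with a median log2 fold change of 3.92 (3.61 with Elf5, which had no WT count, at its bound), while the median was 0.00 in the RUV values, with 1 member called higher and 6 lower. The homeobox gene Rhox6 stood at 366, 378 and 522 CPM in Eed KO cells, against 9.43, 14.3 and 14.9 CPM in WT cells (5.05 ± 0.17). Its neighbour Rhox9 had a log2 fold change of 4.55 ± 0.15, and both belong to a family with closely similar copies. Gata2, a zinc finger factor of trophoblast and blood, stood at 247, 247 and 227 CPM in Eed KO cells, against 35.9, 37.0 and 35.1 CPM in WT cells (2.74 ± 0.10). The simple epithelial keratins Krt8 and Krt18, which pair into filaments, were among the most abundant of these RNAs. Krt8 stood at 1852, 1848 and 1992 CPM in Eed KO cells, against 157, 199 and 192 CPM in WT cells, and Krt18 at 2009, 2061 and 2342 CPM in Eed KO cells, against 153, 193 and 180.1 CPM in WT cells. The groups did not overlap in any of these genes, and Rhox6, Rhox9, Gata2, Krt8 and Krt18 took the other sign in the RUV values. The 15 fixed trophoblast markers summed to 5185, 5239 and 5728 CPM in Eed KO cells, against 530.5, 617 and 591 CPM in WT cells, and Tpbpa and Prl3d1, markers of mature placental cells, did not pass the filter. In bulk RNA, a larger share of cells of a type and more RNA in each cell cannot be told apart, here and for the lineages that follow.

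Primitive endoderm is the inner epithelium that faces the blastocyst cavity, and stem cells can form it spontaneously in culture. Of 21 genes of primitive and visceral endoderm, 19 were tested, 16 were higher and 1 lower, with a median log2 fold change of 3.08 (3.00 with Hnf4a at its bound). In the RUV values 1 was called higher and 1 lower, and the median was 0.60. Sox17, a transcription factor of endoderm, stood at 45.2, 49.4 and 50.2 CPM in Eed KO cells, against 1.25, 2.51 and 2.90 CPM in WT cells (4.47 ± 0.21). Gata6, which starts the primitive endoderm programme, stood at 37.3, 36.4 and 28.6 CPM in Eed KO cells, against 2.22, 1.41 and 3.08 CPM in WT cells (3.95 ± 0.20). Both were well separated between the groups. Dkk1, a secreted Wnt antagonist of the anterior visceral endoderm, was higher by 3.00 ± 0.16, and took the other sign in the RUV values (-0.38). Apoe, an apolipoprotein gene of visceral endoderm that WT stem cells also express strongly, was the lower member, at 288, 300.0 and 345 CPM in Eed KO cells, against 1349.8, 1675 and 1715 CPM in WT cells (-2.34 ± 0.12). Of 15 fixed markers of this lineage, 11 were higher, and their sum was 586, 560.3 and 427 CPM in Eed KO cells, against 94.1, 70.5 and 61.4 CPM in WT cells, while Ttr and Afp, which mark mature visceral endoderm, did not pass the filter.

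Genes of the basement membrane, which parietal endoderm secretes in bulk, were mostly higher. Of 18 genes, 16 were higher and 1 lower, with a median log2 fold change of 2.22. Col4a2, a type IV collagen chain, stood at 1001, 951 and 671 CPM in Eed KO cells, against 60.6, 39.3 and 39.7 CPM in WT cells (4.22 ± 0.19). Sparc, a collagen-binding glycoprotein, stood at 1265, 1256 and 1256 CPM in Eed KO cells, against 303, 311 and 324 CPM in WT cells (2.01 ± 0.06). Serpinh1, the collagen chaperone, stood at 482, 424 and 444 CPM in Eed KO cells, against 90.2, 95.7 and 90.6 CPM in WT cells (2.29 ± 0.07). The collagen level followed the library split, being lowest in Eed KO replicate 3 and highest among WT libraries in replicate 1, whereas Sparc and Serpinh1 were level across libraries. Without WT replicate 1 the values were 4.48 for Col4a2, 2.00 for Sparc and 2.28 for Serpinh1. Nid2, which encodes the matrix protein nidogen-2, was the lower member, and its call was lost without WT replicate 1 (-0.15, adjusted p = 0.4).

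Imprinted genes moved in both directions. Of 43 imprinted genes, 40 were tested, 19 were higher and 13 lower in Eed KO cells, with a median log2 fold change of 0.13, which was -0.22 in the RUV values. Cdkn1c, a cyclin-dependent kinase inhibitor expressed from the maternal copy, stood at 458, 478 and 495 CPM in Eed KO cells, against 29.2, 32.3 and 36.4 CPM in WT cells (3.87 ± 0.12). Igf2, the paternally expressed growth factor that neighbours H19, stood at 2002, 1809.7 and 1494 CPM in Eed KO cells, against 111, 91.0 and 78.6 CPM in WT cells (4.24 ± 0.13), though it took the other sign in the RUV values (-0.46). H19 and Igf2 normally use opposite parental copies, and both were higher in every knockout library. The parental origin of the reads was not analysed here. Peg10, a retroelement-derived gene needed for the placenta, stood at 2936, 2753 and 1999.8 CPM in Eed KO cells, against 330.2, 224 and 222 CPM in WT cells (3.31 ± 0.14, and 3.53 without WT replicate 1). In the RUV values it was -0.019. Slc38a4, an amino acid transporter gene whose imprint depends on the PRC2 mark in early embryos, had a log2 fold change of 2.09 ± 0.10. On the lower side, beside Plagl1, were Meg3, a maternally expressed noncoding RNA (-1.95 ± 0.14), and Impact, a regulator of translation (-1.24 ± 0.08).

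A set of germline genes is silenced in somatic cells by DNA methylation and, in stem cells, also by a variant PRC1 that contains Pcgf6 and the E-box binding pair Mga and Max. Of 27 such genes, 26 were tested, 21 were higher and 2 lower in Eed KO cells, with a median log2 fold change of 1.78. Mael, which acts in transposon silencing, stood at 30.5, 32.1 and 31.7 CPM in Eed KO cells, against 3.05, 6.26 and 5.25 CPM in WT cells (2.71 ± 0.15). Fkbp6, a chaperone of the same piRNA pathway, stood at 16.1, 17.0 and 17.2 CPM in Eed KO cells, against 3.47, 3.60 and 1.99 CPM in WT cells (2.43 ± 0.16). Hormad1, a meiotic chromosome axis protein, went the other way, at 6.41, 6.29 and 7.19 CPM in Eed KO cells, against 9.43, 11.1 and 9.06 CPM in WT cells (-0.58 ± 0.18, adjusted p = 0.0052, and 0.07 in the RUV values). Sycp3, of the synaptonemal complex, overlapped between the groups, at 2.28, 2.14 and 4.26 CPM in Eed KO cells and 3.60, 4.54 and 5.98 CPM in WT cells (-0.72 ± 0.25, adjusted p = 0.00951), and its call was lost when either Eed KO replicate 1 or WT replicate 3 was left out.

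The promoters of these 4 genes carry the E-box that Mga and Max bind, whichever way the gene moved. The 250 bases before each start are shown on the gene's strand, from RefSeq on GRCm38.p6, with CACGTG in capitals. This motif reads the same on both strands.
Mael, chr1:166238745-166238994, minus strand: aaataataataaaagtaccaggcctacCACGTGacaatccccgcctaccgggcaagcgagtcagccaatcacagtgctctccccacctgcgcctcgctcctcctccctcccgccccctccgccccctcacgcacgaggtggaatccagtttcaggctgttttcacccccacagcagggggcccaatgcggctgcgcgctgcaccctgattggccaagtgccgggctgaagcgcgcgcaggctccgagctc
Fkbp6, chr5:135350045-135350294, minus strand: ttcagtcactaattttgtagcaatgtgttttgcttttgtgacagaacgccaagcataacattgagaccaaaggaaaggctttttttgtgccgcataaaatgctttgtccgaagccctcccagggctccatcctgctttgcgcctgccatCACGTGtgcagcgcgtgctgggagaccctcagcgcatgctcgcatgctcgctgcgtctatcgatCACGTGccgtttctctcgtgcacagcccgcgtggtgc
Hormad1, chr3:95559427-95559676, plus strand: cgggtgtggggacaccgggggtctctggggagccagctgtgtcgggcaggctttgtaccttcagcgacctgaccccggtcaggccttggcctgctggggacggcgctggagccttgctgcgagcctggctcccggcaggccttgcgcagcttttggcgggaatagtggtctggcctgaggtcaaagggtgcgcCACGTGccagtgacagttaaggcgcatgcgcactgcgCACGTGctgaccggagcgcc
Sycp3, chr10:88459337-88459586, plus strand: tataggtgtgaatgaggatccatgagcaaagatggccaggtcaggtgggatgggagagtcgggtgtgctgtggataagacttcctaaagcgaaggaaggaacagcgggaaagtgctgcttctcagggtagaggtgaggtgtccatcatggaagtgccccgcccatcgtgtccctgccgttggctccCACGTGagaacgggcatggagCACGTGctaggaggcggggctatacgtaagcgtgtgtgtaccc

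Of the 23 germline genes matched to a promoter, 12 (52.2%) held CACGTG, against 1633 of all 27025 promoters (6.04%) and 168 of 2086 promoters of genes higher by at least 2-fold (8.05%). Beside Mael and Fkbp6, the motif stood before Ddx4, Sycp1, Taf7l, Slc25a31, Brdt, Stk31, Tdrd1 and Mov10l1, all higher, with log2 fold changes of 0.31 for Ddx4 to 3.46 for Taf7l. Taf7l, a testis-enriched relative of a general transcription factor, stood at 15.5, 16.3 and 18.9 CPM in Eed KO cells, against 1.94, 1.72 and 0.725 CPM in WT cells. Genes without the motif in this window were also higher, among them Sohlh2, a factor of early germ cells (3.17). The presence of the letters thus did not separate higher from lower members, and a match describes the sequence only.

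The 2-cell genes are a programme of the early embryo that rare stem cells switch on. Of 21 such genes, 18 were in the table and 11 were tested, and all 11 were higher by at least 2-fold, with a median log2 fold change of 3.66. In the RUV values none of the 11 was called, and the median was 0.33. The levels were low, and in WT cells too low for the filter on counts, so these genes passed it through groups where they were higher and their shared direction is largely set by that. Zscan4d stood at 5.27, 2.81 and 3.23 CPM in Eed KO cells, against 0.277, 0.313 and 0 CPM in WT cells. Zscan4c, which protects telomeres, stood at 3.07, 2.01 and 3.38 CPM in Eed KO cells, against 0.139, 0.157 and 0.181 CPM in WT cells. The Zscan4 and Usp17l genes are near-identical copies, so the values of single members are uncertain.

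Against this, the pluripotency network was lower. Of 22 naive pluripotency genes, all tested, none was higher and 18 were lower, 10 of them by at least 2-fold, with a median log2 fold change of -0.77. All 10 core pluripotency genes were lower, with a median of -0.87. Sox2, the partner of Oct4, stood at 179, 193 and 186 CPM in Eed KO cells, against 631, 661 and 690.1 CPM in WT cells (-1.83 ± 0.06). Pou5f1, which encodes Oct4, stood at 681, 713 and 739 CPM in Eed KO cells, against 1077, 1193 and 1270.0 CPM in WT cells (-0.73 ± 0.10, and 0.09 in the RUV values). The core genes remained well expressed in the knockout, at lower levels.

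Members of the naive set differed in how far they were apart. Nr0b1, an orphan nuclear receptor, stood at 18.9, 20.1 and 23.3 CPM in Eed KO cells, against 134, 164 and 178 CPM in WT cells (-2.94 ± 0.10). Gbx2 stood at 4.74, 4.68 and 2.79 CPM in Eed KO cells, against 44.6, 43.5 and 45.3 CPM in WT cells (-3.41 ± 0.14). Both genes were far below the WT range in every knockout library. Klf2, a naive factor that 2i stabilises, stood at 195, 203 and 185 CPM in Eed KO cells, against 579.8, 727 and 788 CPM in WT cells (-1.84 ± 0.12). Esrrb, an orphan receptor induced by GSK3 inhibition, stood at 276, 260.1 and 234 CPM in Eed KO cells, against 788, 630.2 and 592 CPM in WT cells (-1.38 ± 0.10). Nanog, the homeobox factor at the centre of the network, stood at 552, 538 and 611 CPM in Eed KO cells, against 884, 978 and 978 CPM in WT cells (-0.74 ± 0.08). Tbx3, a T-box factor of naive cells and endoderm, stood at 265, 262 and 208 CPM in Eed KO cells and 263, 212 and 214 CPM in WT cells, and was not called (0.09 ± 0.10, adjusted p = 0.414).

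Genes of the formative state, the step after naive pluripotency, split. Of 18 genes, 16 were tested, 7 were higher and 4 lower, with a median log2 fold change of 0.40. Otx2, which drives the exit from the naive state, stood at 14.9, 12.0 and 14.4 CPM in Eed KO cells, against 0.832, 1.25 and 0.543 CPM in WT cells (3.93 ± 0.28). Pou3f1, a POU-domain factor of the early epiblast, stood at 47.4, 58.0 and 53.7 CPM in Eed KO cells, against 6.51, 11.7 and 9.78 CPM in WT cells (2.51 ± 0.16). Both were clearly present in the knockout and near background or low in WT cells. Sox4 (1.04 ± 0.14) and the DNA methyltransferase gene Dnmt3b (0.70 ± 0.10) were higher, and Foxp1, a forkhead factor, was lower (-2.85 ± 0.17).

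**Figure D3:**
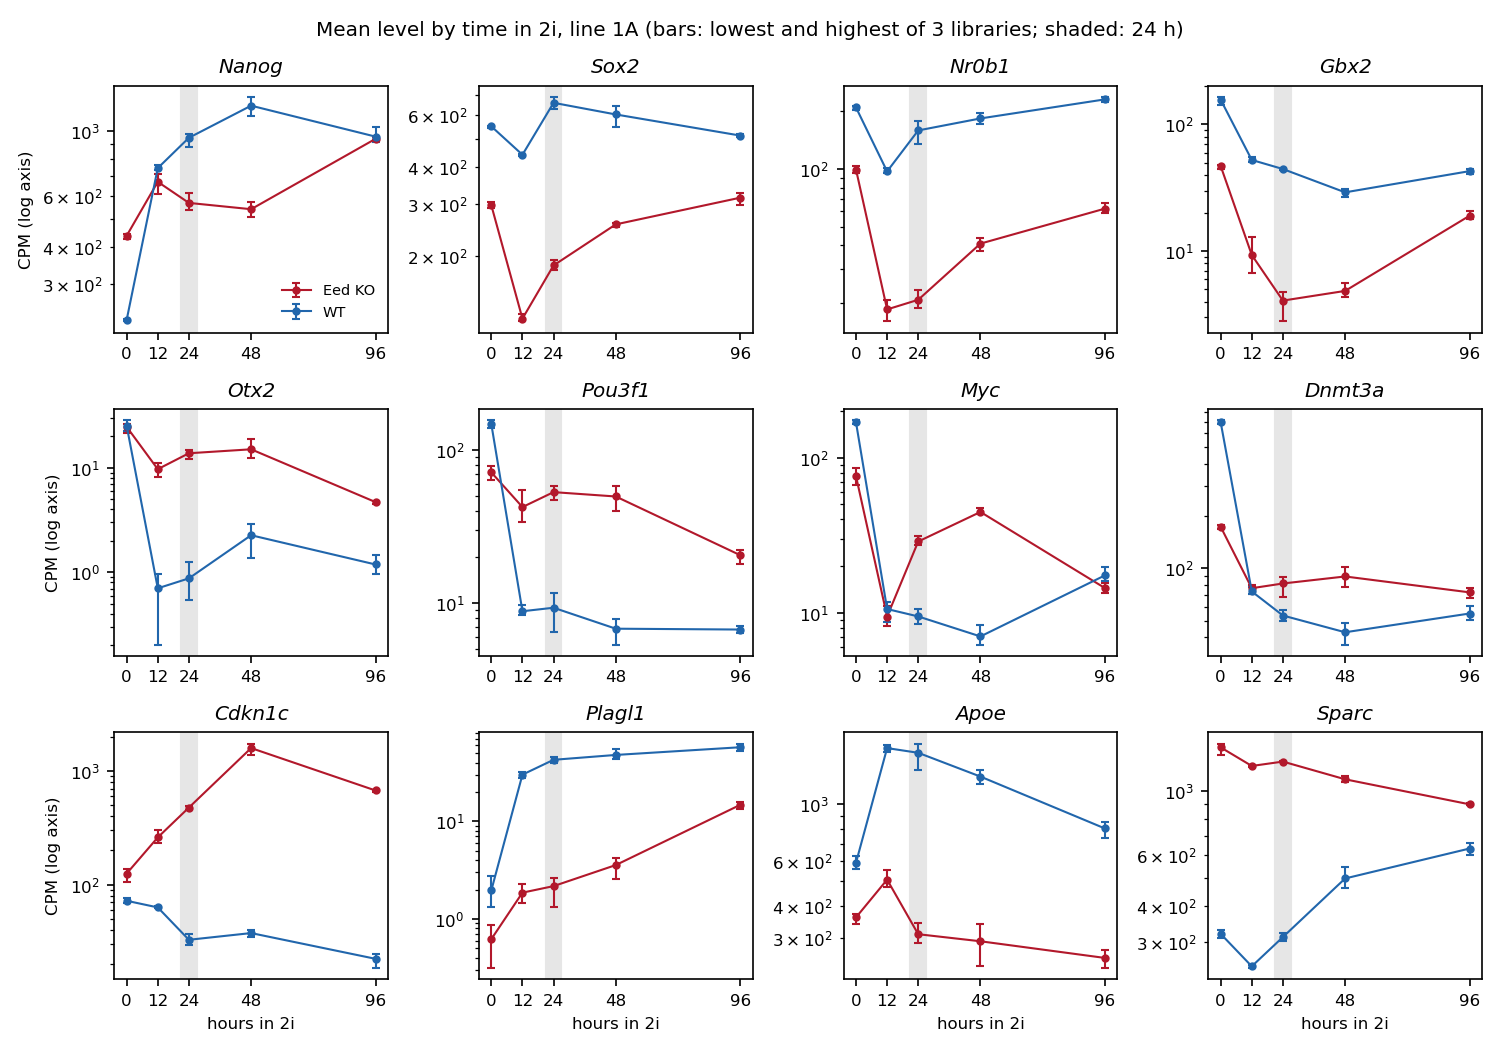
Mean level in CPM, on a log axis, of 12 genes at 0, 12, 24, 48 and 96 h of 2i in Eed KO and WT cells; a point is the mean of 3 libraries, its bar runs from the lowest to the highest, and 24 h is shaded. At 24 h Otx2 and Myc average 13.8 and 28.8 CPM in the knockout against 0.876 and 9.48 CPM in WT cells, and Nanog lies below the WT level at 24 h and above it at 0 h.

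ERK targets and their feedback inhibitors, which MEK inhibition turns down, were more often lower than higher. Of 23 genes, 21 were tested, 7 were higher and 11 lower, with a median log2 fold change of -0.58. In serum without the inhibitors 3 were higher and 14 lower, with a median of -0.56. The median difference between the 2 times was -0.04, with 6 genes called higher and 5 lower at 24 h. Spry2, a feedback inhibitor of receptor signalling, stood at 43.2, 48.1 and 45.5 CPM in Eed KO cells, against 103, 102 and 102 CPM in WT cells (-1.17 ± 0.07). Spred1, another feedback inhibitor (-2.01 ± 0.13), and Ccnd1, which encodes cyclin D1 (-1.41 ± 0.10), were also lower. The immediate early genes Fos (2.29 ± 0.27) and Ier3 (1.65 ± 0.19) were higher, from low WT levels. Myc, a growth-promoting factor that 2i represses, stood at 27.8, 27.4 and 31.3 CPM in Eed KO cells, against 10.5, 9.40 and 8.51 CPM in WT cells (1.59 ± 0.12). Ribosome biogenesis genes and other Myc targets did not follow it, since 25 of 30 were lower and 1 higher, with a median of -0.58. In the RUV values 2 of these genes were lower and 1 higher, with a median of -0.07. Lower calls were common among abundant genes in general. Of 2391 genes at 100 CPM or more in WT cells, 1488 were called lower and 298 higher. Dkc1, the pseudouridine synthase of ribosomal RNA (-1.42 ± 0.09), and Gnl3, the nucleolar protein nucleostemin (-0.85 ± 0.07), were among the lower members of the list.

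Enzymes of DNA methylation and demethylation were lower more often than higher, 7 against 3 of 14, with a median log2 fold change of -0.28, which was 0.04 in the RUV values. Dnmt3a, a de novo methyltransferase, stood at 88.6, 88.1 and 68.7 CPM in Eed KO cells, against 57.2, 50.0 and 53.3 CPM in WT cells (0.62 ± 0.11, and 0.68 without WT replicate 1). The oxidases of methylcytosine moved in opposite directions. Tet1, the main one of stem cells, stood at 135, 136 and 114 CPM in Eed KO cells, against 434, 269.9 and 273 CPM in WT cells (-1.34 ± 0.17). Tet3 stood at 42.5, 44.8 and 28.0 CPM in Eed KO cells, against 9.56, 8.30 and 7.97 CPM in WT cells (2.16 ± 0.17, and 2.25 without WT replicate 1). WT replicate 1 was the highest library for Tet1, a long transcript, and the value without it was -1.07.

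Secreted ligands and antagonists of the Wnt, BMP and FGF families were higher on balance, 17 higher and 5 lower of 29 tested among 42, with a median log2 fold change of 1.18, which was -0.29 in the RUV values. Wnt4 (2.85 ± 0.18, and -0.46 in the RUV values) and the BMP antagonist Nog (2.76 ± 0.27) were higher, while Fgf4, the autocrine factor of stem cells, was lower (-1.22 ± 0.07). The Nodal inhibitors diverged. Lefty1 stood at 9.75, 9.77 and 14.2 CPM in Eed KO cells, against 66.3, 81.0 and 81.3 CPM in WT cells (-2.78 ± 0.16), while Lefty2 stood at 76.6, 85.3 and 91.8 CPM in Eed KO cells, against 42.3, 37.4 and 45.1 CPM in WT cells (1.02 ± 0.11, and -0.46 in the RUV values). Both Lefty genes are neighbours on 1 chromosome, encode similar proteins and were called in opposite directions. Nodal itself was lower (-0.76 ± 0.11).

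Wnt target genes, which GSK3 inhibition turns on, were called in both directions. Of 19 genes, 17 were tested, 7 were higher and 6 lower, with a median log2 fold change of 0.35, which was -0.19 in the RUV values. Ascl2, a target that also maintains trophoblast, stood at 65.7, 70.7 and 69.7 CPM in Eed KO cells, against 4.57, 7.36 and 8.15 CPM in WT cells (3.38 ± 0.18). Sp5, a direct target and partner of beta-catenin, stood at 4.13, 4.28 and 5.14 CPM in Eed KO cells, against 26.6, 31.0 and 29.2 CPM in WT cells (-2.69 ± 0.16). Fzd7, a Wnt receptor gene, was lower too (-1.71 ± 0.12).

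Mesendoderm and neural genes were called in both directions. Of 21 mesendoderm genes, 14 were tested, 5 were higher and 3 lower, with a median log2 fold change of 0.01 (-0.29 in the RUV values). Of 21 neural genes, 15 were tested, 5 were higher and 7 lower, with a median of -0.37 (0.07 in the RUV values). Nes, an intermediate filament gene of neural progenitors, was higher (1.37 ± 0.14) and the neuronal factor Sox11 lower (-1.20 ± 0.14). The 9 fixed neural markers summed to 234, 227 and 226 CPM in Eed KO cells and 231, 241 and 249.6 CPM in WT cells, so the sums overlapped. Of 15 fibroblast and feeder genes, 10 were tested, 6 were higher and 1 lower, with a median of 1.55 (2.08 without WT replicate 1). Their 13 fixed markers summed to 51.6, 50.1 and 43.5 CPM in Eed KO cells, against 13.2, 13.8 and 12.1 CPM in WT cells, with no overlap.

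Contractile genes and targets of the mechanosensitive factor YAP were higher in 15 of 17 tested and lower in 1, with a median log2 fold change of 1.49, which was -0.18 in the RUV values. Anxa1, a membrane-binding annexin, stood at 123, 134 and 149.6 CPM in Eed KO cells, against 10.8, 12.8 and 13.2 CPM in WT cells (3.47 ± 0.12, and -0.43 in the RUV values). Ankrd1, a textbook YAP target, stood at 16.6, 17.8 and 16.9 CPM in Eed KO cells, against 0.554, 0.783 and 0.543 CPM in WT cells (4.72 ± 0.27). Cyclin-dependent kinase inhibitors and p53 targets were higher in 13 of 20 and lower in 4, with a median of 0.61, which was -0.14 in the RUV values. Btg2, an antiproliferative p53 target, stood at 134, 132 and 121 CPM in Eed KO cells, against 27.6, 27.1 and 26.8 CPM in WT cells (2.25 ± 0.11). Gadd45a, another p53 target, was lower (-1.87 ± 0.14), as was Trp53, which encodes p53 (-0.76 ± 0.07).

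Whether the knockout difference at 24 h of 2i was the same as in serum was tested as an interaction, the log2 fold change at 24 h minus that at 0 h. Of the genes tested, 2934 (19.5%) were called, 1635 (10.8%) with a higher and 1299 (8.61%) with a lower value at 24 h. With the filter at a mean of 1 CPM the balance turned, to 1436 higher and 1561 lower, as it did in the RUV values, with 992 higher and 1199 lower, and 4624 genes were called without WT replicate 1 and Eed KO replicate 3 of 24 h. All interaction values given for single genes passed this test. In serum itself 49.6% of genes were called between Eed KO and WT cells, 26.4% as higher and 23.3% as lower.

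Naive genes had lower values at 24 h than in serum. Their median difference between Eed KO and WT cells was -0.12 in serum, where 8 were higher and 8 lower, and -0.77 at 24 h, and 17 of the 22 had a lower value at 24 h by the interaction, none a higher one. Nanog averaged 438 CPM in Eed KO cells and 226 CPM in WT cells in serum, but 567 CPM in Eed KO cells and 947 CPM in WT cells at 24 h (interaction -1.70). Tbx3 averaged 227 CPM in Eed KO cells and 30.5 CPM in WT cells in serum, a difference that was gone at 24 h (interaction -2.81). Both genes were higher in the knockout in serum. Sox2 (-0.94), Nr0b1 (-1.87) and Gbx2 (-1.67) were lower at both times and further apart at 24 h.

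Formative genes had higher values at 24 h than in serum. Their median was -0.57 in serum, with none higher and 10 lower, and 0.40 at 24 h, and 10 of 16 had a higher value at 24 h by the interaction against 1 lower. Otx2 averaged 24.7 CPM in Eed KO cells and 25.3 CPM in WT cells in serum. At 24 h it averaged 13.8 CPM in Eed KO cells and 0.876 CPM in WT cells (interaction 3.97). Myc, which belongs to the ERK targets and not to the formative list, averaged 75.9 CPM in Eed KO cells and 169 CPM in WT cells in serum. At 24 h it averaged 28.8 CPM in Eed KO cells and 9.48 CPM in WT cells (interaction 2.74). Dnmt3a averaged 174 CPM in Eed KO cells and 696 CPM in WT cells in serum, against 81.8 CPM in Eed KO cells and 53.5 CPM in WT cells at 24 h (interaction 2.62). In these 3 genes the WT level dropped by more than the knockout level between serum and 24 h, and the order of the groups at 24 h was the reverse of that in serum for Myc and Dnmt3a. Pou3f1 (3.56) and Sox4 (1.68) followed the same pattern.

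**Figure D4:**
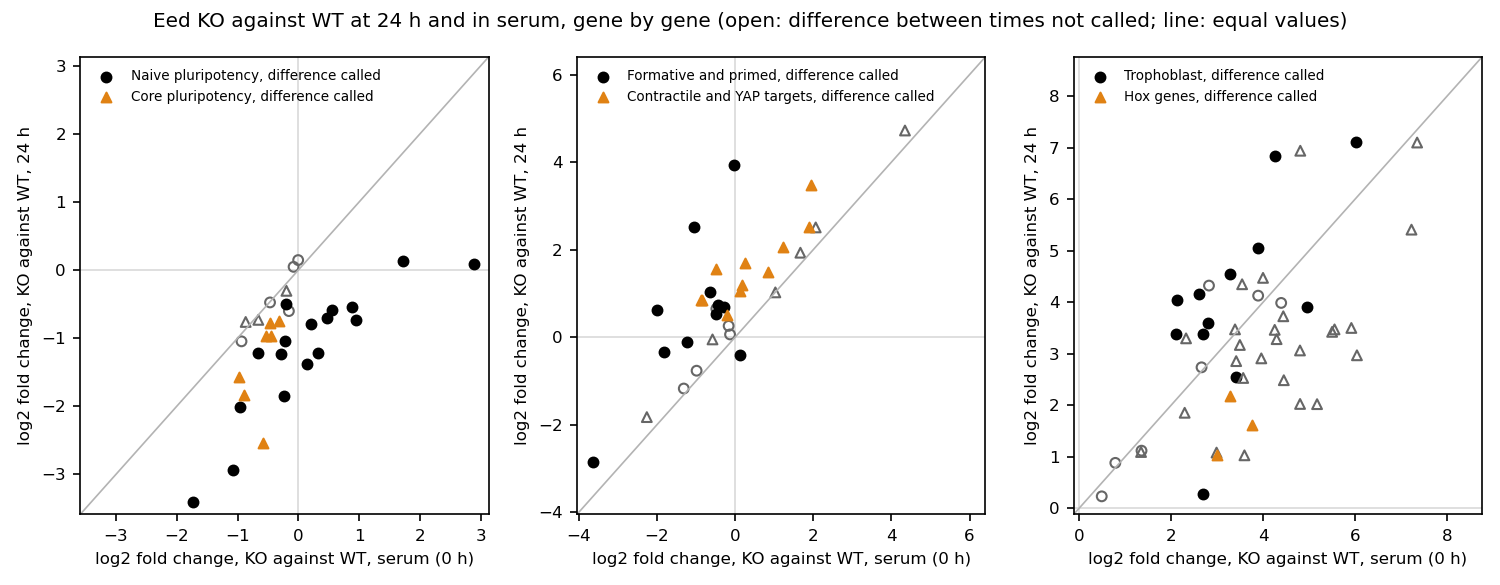
Log2 fold change of Eed KO against WT at 24 h of 2i (vertical) and in serum at 0 h (horizontal) for the naive and core, the formative and contractile, and the trophoblast and Hox genes; a point is 1 gene, filled where the difference between the times was called. Most naive genes lie below the diagonal and most formative genes above it. The Hox genes lie in the upper right, most of them below the diagonal too. The median difference between the times was -1.05 for Hox and -1.09 for naive genes. The axes share no libraries.

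Hox and trophoblast genes were mostly higher at both times. The Hox median was 4.0 in serum and 3.06 at 24 h, and 3 of 29 Hox genes had a lower value at 24 h by the interaction. The trophoblast median was 2.79 in serum and 3.92 at 24 h, with 9 of 19 higher by the interaction and 3 lower. Rhox6 had an interaction of 1.16 and Dkk1 of -1.82. Apoe was lower in the knockout at both times, by more at 24 h (-1.64). Cdkn1c was further above WT at 24 h, averaging 125 CPM in Eed KO cells and 72.0 CPM in WT cells in serum, against 477 CPM in Eed KO cells and 32.6 CPM in WT cells at 24 h (interaction 3.08). Plagl1 (-2.72), Fgf17 (-2.86) and Ntn1 (-2.68) were further below WT at 24 h, and Bcor (1.38), Tet3 (1.82) and Anxa1 (1.52) further above it. Phf19 changed sides, being below WT in serum (log2 fold change -1.06) and above it at 24 h (interaction 2.46). Meg3 was lower at both times, by less at 24 h (1.10).

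A second interaction set the difference at 24 h against that at 96 h. It called 3058 genes (20.3%), 1439 (9.54%) with a higher and 1619 (10.7%) with a lower value at 24 h. At 96 h 55.3% of genes were called between Eed KO and WT cells, 30.9% as higher and 24.4% as lower. Basement membrane genes were further above WT at 24 h than at 96 h, with 11 of 18 called in that direction and none in the other, and their median was 0.91 at 96 h. Sparc (1.5) and Col4a2 (1.16) were among them. Naive genes were further below WT at 24 h, with 15 of 22 called and none in the other direction, and a median of -0.40 at 96 h. Nanog averaged 939 CPM in Eed KO cells and 955 CPM in WT cells at 96 h. Sp5 (-3.21), Trh (-3.45), Lefty1 (-4.22) and Lefty2 (-2.20) had lower values at 24 h than at 96 h. Cdkn1c averaged 675 CPM in Eed KO cells and 22.2 CPM in WT cells at 96 h, further apart than at 24 h (-1.06), after 1596 CPM in Eed KO cells and 37.4 CPM in WT cells at 48 h.

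Set against the V19 WT line at 24 h, 8901 genes (59.0%) were called, 4792 (31.8%) as higher and 4109 (27.2%) as lower in Eed KO cells. In the RUV values 243 of 17754 were higher and 492 lower. The comparison shares the knockout libraries with that against 1A WT cells, so the values are given side by side and are not independent. The trophoblast median was 4.32 against V19 WT cells, the Hox median 2.40, the naive median -0.78 and the germline median 1.18. H19 averaged 3817 CPM in Eed KO cells, 9.21 CPM in V19 WT cells and 27.7 CPM in 1A WT cells. Sox2 averaged 186 CPM in Eed KO cells, 547 CPM in V19 WT cells and 661 CPM in 1A WT cells. Otx2 averaged 13.8 CPM in Eed KO cells, 2.49 CPM in V19 WT cells and 0.876 CPM in 1A WT cells. For these genes both wild-type lines lay on the same side of the knockout, although their own levels differed.

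The Ezh2 KO line, in which Ezh1 can still work with Eed, was compared with the Eed KO line at 24 h. The test called 7902 genes (52.4%), 4238 (28.1%) as higher and 3664 (24.3%) as lower in Eed KO cells. In the RUV values 727 of 17754 were higher and 1117 lower. Ezh2 averaged 165 CPM in Eed KO cells and 15.9 CPM in Ezh2 KO cells, and Eed averaged 17.3 CPM in Eed KO cells and 218 CPM in Ezh2 KO cells, so each line was low for its own gene. Hox genes were higher in Eed KO cells, 20 of 29 with none lower and a median of 1.18, as were trophoblast genes, 16 of 19 with 1 lower and a median of 3.35 (Hand1 averaged 155 CPM in Eed KO cells, 3.10 CPM in Ezh2 KO cells and 1.05 CPM in 1A WT cells). H19 averaged 3817 CPM in Eed KO cells and 5.59 CPM in Ezh2 KO cells, and Cdkn1c 477 CPM in Eed KO cells and 21.0 CPM in Ezh2 KO cells. Naive genes were lower in Eed KO cells, 20 of 22 with 1 higher and a median of -1.06. Some genes differed from WT in both knockouts. Otx2 averaged 13.8 CPM in Eed KO cells, 25.1 CPM in Ezh2 KO cells and 0.876 CPM in 1A WT cells, and was lower in Eed KO than in Ezh2 KO cells (-0.86). Fkbp6 averaged 16.8 CPM in Eed KO cells, 20.4 CPM in Ezh2 KO cells and 3.02 CPM in 1A WT cells. Meg3 averaged 12.3 CPM in Eed KO cells, 11.4 CPM in Ezh2 KO cells and 48.1 CPM in 1A WT cells, and did not pass the test between the knockouts (0.12, adjusted p = 0.544).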

How the data were processed

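PolyA RNA of 60 cultures was made into libraries and read as single reads on a NextSeq 500, per the labels' protocols. Per the submitters' processing notes, which give names without an order, the authors used STAR 2.7.10b, featureCounts 2.0.3, MultiQC 1.14 and DESeq2 with GRCm39 (mm39). Strand settings are not given in the sources used here, so overlapping antisense genes and genes with near-identical copies or pseudogenes, such as Pou5f1 and Krt18, may share reads. The authors deposited raw counts per gene and a table of RUV-normalized values, used here as a score whose settings are not given in the sources used here.

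Of 50559 genes in the count table, 15098 had no count in any library, and 15083 passed edgeR's filter by group (minimum count 10, minimum total 15). All 60 libraries entered 1 model of 20 groups with 40 residual degrees of freedom (edgeR 4.0.16 in R 4.3.3, TMM factors, quasi-likelihood test). Genes were called at a Benjamini-Hochberg adjusted p under 0.05 over all genes tested. Levels are CPM with TMM factors, computed here from the deposited counts and not corrected for transcript length. Bounds cover counting error only. On simulated counts of 13490 genes, 55.2% of 1.5-fold, 83.6% of 2-fold and 95.5% of 4-fold changes were recovered. The simulation changed few genes, all at 1 CPM or more in WT cells, and held no split of libraries along transcript length. It therefore does not give the recovery in the real comparison. RUV values were tested with limma 3.58.1 on log2(value + 1), and DESeq2 1.42.0 was an alternative.

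The comparison, the gene lists and the markers were chosen with earlier results of these data known. Named genes were up to 10 per direction by fold change among called genes with at least 5 CPM, no overlap between groups and the same call without WT replicate 1, up to 4 members of each list by adjusted p and up to 2 of its rarer direction, and up to 6 per direction of each interaction. Nanog, Tbx3, Klf2, Esrrb, Krt8, Krt18, Peg10, Slc38a4, Taf7l, Slc25a31 and Pou5f1, other list members given with a value, the printed promoters and the interaction values of further genes were chosen after their values were seen. Promoters were taken from RefSeq on GRCm38.p6 and matched by symbol, and no coordinate was converted between builds. Some named genes are not reported here.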

Additional observations from a re-analysis of the deposited data

Results flagged for a closer look

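The knockout difference at 24 h of 2i differed from that in serum, by the interaction term in edgeR's quasi-likelihood test, in 2934 genes, and from that at 96 h in 3058 genes. All values here are log2 differences between the 2 times (24 h minus the other time) of the Eed KO against WT difference, and those of genes with hardly a count in 1 group depend on edgeR's prior count and are no bounds.

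Against serum, the largest values by the naming rule were those of Arhgef37 (4.45), Rsad2 (4.41), Tmem54 (4.36), Sema6a (4.20), Otx2 (3.97) and Vdr (3.9) on the higher side. On the lower side they were Foxf2 (-4.43), Bhmt (-4.39), Tfec (-4.38), S1pr1 (-4.17), Platr22 (-3.68) and Pga5 (-3.57). Foxf2 and Bhmt had no count in WT cells at 0 h. Among pluripotency genes the difference passed the test for Sox2 (-0.94), Nr0b1 (-1.87), Gbx2 (-1.67), Nanog (-1.70), Tbx3 (-2.81), Pou3f1 (3.56), Sox4 (1.68) and Dnmt3a (2.62). Among imprinted genes and genes of growth factors or guidance proteins it held for Cdkn1c (3.08), Plagl1 (-2.72), Meg3 (1.10), Fgf17 (-2.86) and Ntn1 (-2.68). It also held for the ERK target Myc (2.74) and for Phf19 (2.46), Bcor (1.38), Tet3 (1.82), Anxa1 (1.52), Rhox6 (1.16), Dkk1 (-1.82) and Apoe (-1.64).

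Against 96 h, the values on the higher side were those of Klb (4.56), Xlr3a (4.03), Vdr (3.47), Tex13b (3.36), Pramel30 (3.07) and Ccdc141 (3.05). On the lower side they were S100a14 (-5.59), Krt16 (-5.02), Mobp (-4.77), Hcls1 (-4.43), Prom2 (-4.24) and Lefty1 (-4.22). Xlr3a had no count in WT cells at 24 h, and Prom2 none in WT cells at 96 h. Sparc (1.5), Col4a2 (1.16), Cdkn1c (-1.06), Lefty2 (-2.20), Trh (-3.45) and Sp5 (-3.21) also differed between the times. No explanation of these differences was tested.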

How the results depend on the processing

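With RLE factors, no filter, a filter at 1 CPM, DESeq2, the groups alone or single libraries left out, the count of genes called in Eed KO against WT cells stayed within 1.5 times of 9466. Fitted alone, the Eed KO and WT groups of 24 h gave 7464 of 13423 genes tested. Leaving out 1 library gave 8610 to 9474 genes, and 2279 to 3699 for the interaction with serum, 2248 to 3800 for that with 96 h, 8049 to 8761 against V19 WT and 7181 to 7811 against Ezh2 KO cells. Adding the length index as a covariate gave 9802 genes, and leaving out both 24 h libraries that stand apart gave 9478 (both chosen after seeing the data). Without these 2 libraries the interaction with serum called 4624 genes. The RUV values gave 1335 genes, 735 against V19 WT and 1844 against Ezh2 KO cells; the cause was not tested.

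In the RUV values 25 of the genes called from the raw counts took the other sign, namely H19 (-1.02), Pcgf5 (-0.22), Hoxd13 (-0.39), Gata2 (-0.70), Dkk1 (-0.38), Rhox9 (-0.82), Rhox6 (-0.28), Lefty2 (-0.46), Neurog1 (-0.89), Lin28b (0.055), Wnt4 (-0.46), Igf2 (-0.46), Hormad1 (0.071), Plk2 (-0.16), Nolc1 (0.0091), Anxa1 (-0.43), Ccn1 (-0.077), Anxa3 (-0.69), Rsad2 (-0.037), Foxf2 (-0.30), S1pr1 (-1.44), Krt8 (-0.47), Krt18 (-0.59), Peg10 (-0.019) and Pou5f1 (0.091). Another 5 genes, not called from the raw counts, also took the other sign there. A further 62 of 159 genes lost their call or had no RUV value. The other 67 kept their sign and status, and can include genes called in neither set of values. Among the lists, 15 of 22 naive genes were still called lower there and 9 of 18 basement membrane genes higher. List medians moved by more than their spread over the knockout libraries in 12 of 23 lists without WT replicate 1, in 14 without both libraries and in 7 with the length covariate, none with a change of sign. Without both libraries the median was 0.70 for formative, -0.24 for neural and -0.10 for DNA methylation genes, and with the covariate 0.10 for Wnt targets. Outside the RUV values, Suz12, Nid2, Bmp4, Gbx1 and Sycp3 lost their call under at least 1 alternative.

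Replicate numbers do not pair the libraries by the labels, and the correlations of same-numbered Eed KO and WT libraries were 0.411, -0.133 and 0.340. Eed KO replicate 2 correlated best with WT replicate 1 (0.219), not with its own number. With a replicate block 9422 genes were called, with 2906 and 3000 for the interactions, 8869 against V19 WT and 7892 against Ezh2 KO cells.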
